A study of Danio rerio with 186 samples.

Results

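The genes described here carry new secretory proteins into the endoplasmic reticulum (ER) and on to the Golgi. They are the 59 rows, of 31953 zebrafish genes, whose symbols name the signal recognition particle and its receptor, the Sec61 translocon, the signal peptidase accessory subunits, the COPII and COPI coats, the p24 (Tmed) cargo receptors, the Sec22 proteins and the KDEL receptors. The rule reads only the symbols. The counts come from 186 single pancreatic cells of fish aged 30 days post fertilization, sorted by fluorescence and prepared with Smart-Seq2, which amplifies full-length cDNA of 1 cell per well. The gates compared were sst1.1+ ins+, sst1.1+ and ins+. All the fish carried Tg(ins:BB1.0L) and TgBAC(sst1.1:memEGFP), so every gate came from the same double-transgenic background. The ins promoter drives the first transgene and a BAC (bacterial artificial chromosome) with the sst1.1 gene drives a membrane EGFP in the other, and each gate is therefore defined by reporter light and not by hormone protein. The ins+ cells were labelled as beta cells and the sst1.1+ cells as somatostatin cells. The titles carry a number that is read here as the sorting plate. Plate 3 held 60 sst1.1+ ins+ and 33 ins+ cells, and plate 4 held 66 sst1.1+ and 27 ins+ cells.

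Secretory proteins are recognised by the signal recognition particle as they leave the ribosome, docked at the ER through its receptor and threaded through the Sec61 channel, where signal peptidase removes the targeting signal. COPII coats then bud vesicles toward the Golgi, p24 receptors help to load them, and COPI coats and KDEL receptors bring escaped ER proteins back. Endocrine cells of the pancreas put preproinsulin and preprosomatostatin, both made with a signal peptide, through this route in large amounts.

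Kept cells had at least 500 detected genes and 50000 gene reads, which left 57 sst1.1+ ins+ and 32 ins+ cells on plate 3 and 61 sst1.1+ and 24 ins+ cells on plate 4. No animals are named, so the cells of a gate on a plate were summed into 1 pool and levels are given as CPM, the count scaled to a total of 1000000 gene reads. With 1 pool per group there is no replicate check and no test, and the 95% intervals given cover counting error only. The 4 pools held between 12550652 and 34186971 gene reads. Hormone genes took 38.9% of the reads in sst1.1+ ins+ cells against 41.6% in ins+ cells of plate 3, and 31.5% in sst1.1+ cells against 38.8% in ins+ cells of plate 4. Transcripts of ins stood at 216853 CPM in sst1.1+ ins+ cells, 549 CPM in sst1.1+ cells, and 397976 CPM (plate 3) and 368884 CPM (plate 4) in ins+ cells, and those of sst1.1 at 144406, 253306, 1389 and 9411 CPM in the same order. A single cell gave 58.3% of the sst1.1 reads of the ins+ pool of plate 3 and 91.95% of those of plate 4, without which sst1.1 stood there at 596 and 793 CPM. The 5 endothelial markers summed to at most 0.329 CPM in any pool, and all 5 were at 0 in both ins+ pools and in the sst1.1+ pool. The 15 acinar markers summed to 20.6 CPM in sst1.1+ ins+ cells against 15.7 CPM in ins+ cells of plate 3, and to 171 CPM in sst1.1+ cells against 58.6 CPM in ins+ cells of plate 4. Single cells carried 86.2% of the acinar reads in the sst1.1+ pool and 98.6% in that ins+ pool, and without them the sums were 23.9 and 0.831 CPM. Immune markers summed to 27.6 CPM in sst1.1+ ins+ against 0.148 CPM in ins+ cells and to 86.9 CPM in sst1.1+ against 19.7 CPM in ins+ cells, and mesenchyme markers to 1.13 against 1.26 CPM and to 29.1 against 1.04 CPM. A single cell carried 90.1% of the mesenchyme reads of the sst1.1+ pool. Duct markers summed to 321 CPM in sst1.1+ ins+ against 196 CPM in ins+ cells and to 527 CPM in sst1.1+ against 137 CPM in ins+ cells, and alpha and epsilon markers to 8891 against 2756 CPM and to 26332 against 8566 CPM in the same pairs. Without the top cell of each pool the last sums were 6020.3 against 728 CPM and 21767 against 973 CPM. Their part in the results was not tested, except that the cells with at most 5% of other hormone reads gave summed member ratios of 1.02 for sst1.1+ ins+ and 1.23 for sst1.1+ over ins+ cells. The 2 gates of a plate filled different rows apart from 1 row each, so gate and plate row cannot be told apart. No plate held both sst1.1+ ins+ and sst1.1+ cells.

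Summed over all 59 members, the pathway took nearly the same share of reads in sst1.1+ ins+ and ins+ cells, and a slightly larger one in sst1.1+ than in ins+ cells. The members summed to 3279 CPM (3257 to 3300.4) in sst1.1+ ins+ cells against 3320.2 CPM (3289.5 to 3351) in ins+ cells of plate 3, a ratio of 0.988 (0.976 to 0.999). They summed to 4541 CPM (4519 to 4564) in sst1.1+ cells against 3879.8 CPM (3845 to 3914) in ins+ cells of plate 4, a ratio of 1.17 (1.16 to 1.18). The ins+ cells of plate 4 stood above those of plate 3 by the same ratio of 1.17 (1.15 to 1.18), so the gap between the gates on plate 4 was no wider than the gap between 2 pools of 1 gate. Over the total without hormone genes the ratio was 0.944 for sst1.1+ ins+ over ins+ cells and 1.05 for sst1.1+ over ins+ cells. The ratios by complex and by gene below are over all gene reads unless stated.

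Single cells overlapped widely between the gates. The lowest, median and highest summed levels were 2123, 3162 and 6533 CPM in sst1.1+ ins+ cells, against 1714, 3046 and 6251 CPM in ins+ cells of plate 3. They were 12, 4316 and 9372 CPM in sst1.1+ cells, against 2199.96, 3884 and 6490.5 CPM in ins+ cells of plate 4. The sst1.1+ cell at 12 CPM was dominated by reads of the row AC024175.4, and without it the sst1.1+ over ins+ ratio was 1.18.

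**Figure D1:**
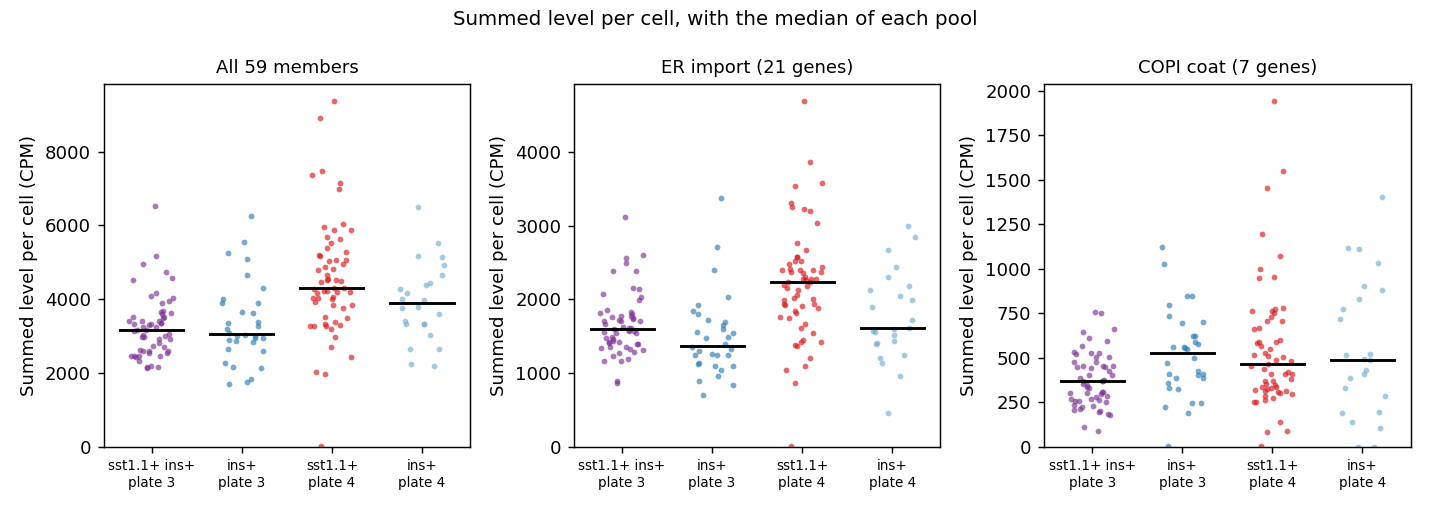
Summed level per cell in CPM for all 59 members, for the 21 ER import genes (signal recognition particle, translocon and signal peptidase) and for the 7 COPI genes; each point is a cell, grouped by gate and plate, and the bar is the median of the pool. All 4 groups overlap in each panel, and the COPI median is 368 CPM in sst1.1+ ins+ cells against 525 CPM in ins+ cells of plate 3.

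Of the members, 47 had a mean of at least 10 CPM over the 4 pools and were compared gene by gene as the log2 ratio of CPM plus 1, beside the 6153 genes of the table at that level. Their median mean level was 47.6 CPM, against 24.7 CPM for all genes compared. A difference of 2-fold or more was counted. Between sst1.1+ ins+ and ins+ cells, 2 members were 2-fold or more higher (sec31a and spcs3), against 11.4% of all genes, and 1 was 2-fold or more lower (tmed3), against 8.76% of all genes. Between sst1.1+ and ins+ cells, 5 were 2-fold or more higher (sec24d, srp9, spcs3, sec61al2 and ssr3), against 17.9% of all genes, and 3 were 2-fold or more lower (sec24b, tmed8 and sec63), against 13.7%. Of the 5, sec24d reached the mean of 10 CPM only through the sst1.1+ pool, so its count as higher there is no separate support. As shares of the 47 members the counts are 4.26% higher and 2.13% lower in sst1.1+ ins+ cells, and 10.6% higher and 6.38% lower in sst1.1+ cells. Each lies below the share of all genes. These counts rested on few cells: with each gene measured without the cell that held most of its reads in each pool, 9 members were 2-fold or more higher in sst1.1+ ins+ cells (21.6% of all genes) and 10 in sst1.1+ cells (28.7% of all genes). The lower counts were then 1 in sst1.1+ ins+ (5.62% of all genes) and 2 in sst1.1+ cells (10.1% of all genes). That setting takes more from the smaller ins+ pools, and it moved the median log2 ratio of all genes to 0.20 in sst1.1+ ins+ and 0.30 in sst1.1+ cells. Every ratio without top cells given below shares this limit, has no interval and is not a corrected value.

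The same count between the ins+ pools shows what 2 plates of 1 gate gave. In ins+ cells of plate 4 against ins+ cells of plate 3, 5 members were 2-fold or more higher (copb1, sec13, sec24b, tmed4 and sec63), against 15.7% of all genes, and 2 were lower (sec24d and srp9), against 12%. The median log2 ratio of the members was 0.08 for sst1.1+ ins+ over ins+ cells, 0.26 for sst1.1+ over ins+ cells and 0.18 between the ins+ pools. The medians over all genes were −0.04, 0.03 and 0.09. The members also spread less than all genes: the SD of the log2 ratios was 0.50 against 0.93 for sst1.1+ ins+ over ins+ cells, and 0.99 against 1.31 for sst1.1+ over ins+ cells. The members were also more highly read than all genes, and the part of read depth in their smaller spread was not tested. By summed reads only spcs3 was past 2-fold the same way in both gates against the ins+ cells of their plates, beside 4.53% of all genes higher in both. Without the leading cell of each gene 7 members were higher in both (sec22a, sec24d, sec31a, sec61al2, spcs3, srp9 and ssr3), which is 14.9% of the members beside 9.88% of all genes. That count takes more from the smaller ins+ pools, and it includes sec24d, which was compared only through the sst1.1+ pool. No member compared was 2-fold or more lower in both by either count. Of all genes, 2.52% were by summed reads and 1.45% without leading cells.

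**Figure D2:**
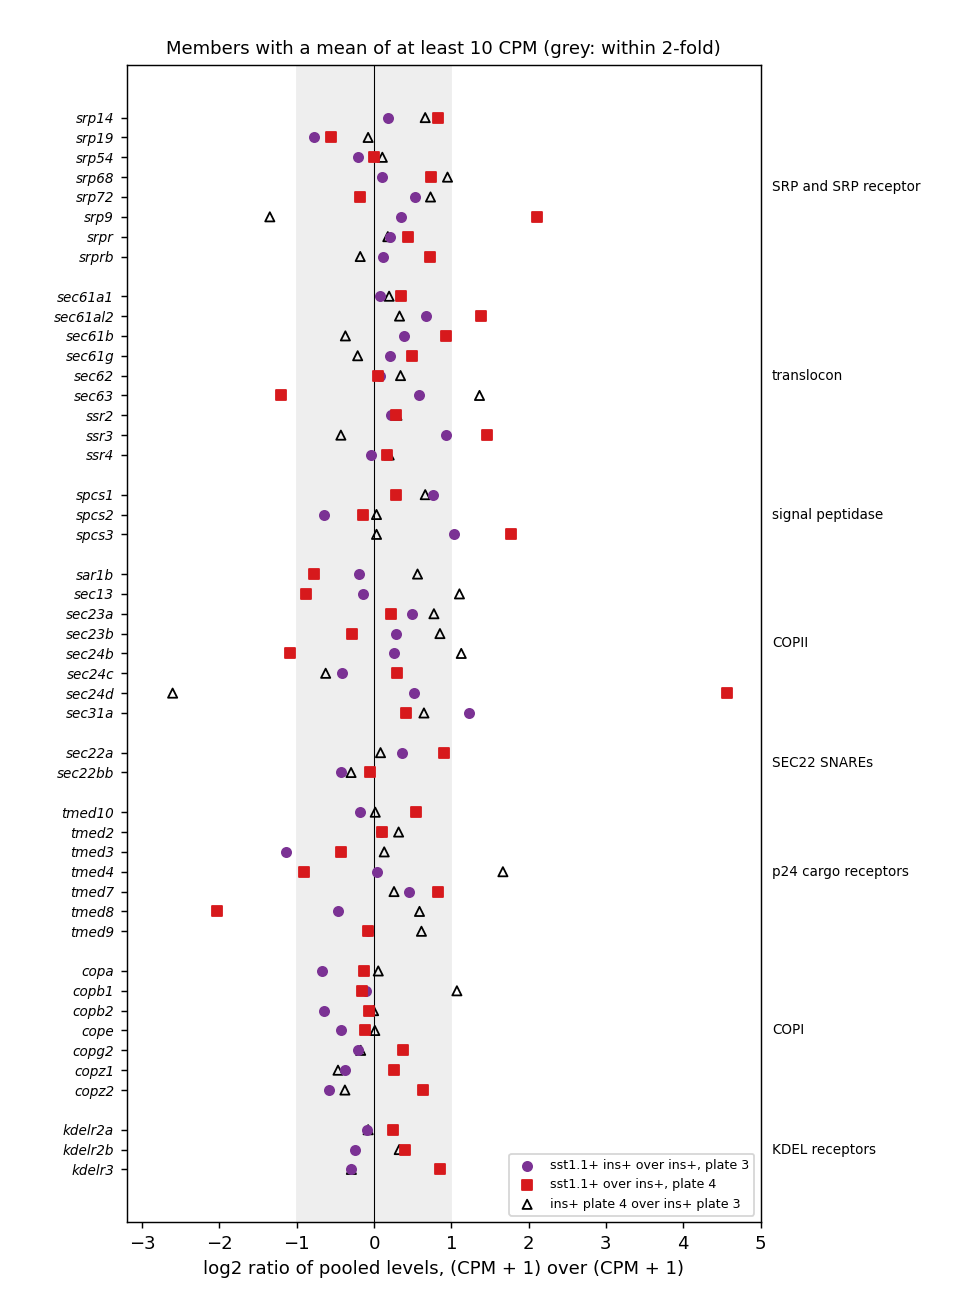
Log2 ratio of pooled levels (CPM plus 1) for the 47 members with a mean of at least 10 CPM, grouped by complex; circles are sst1.1+ ins+ over ins+ cells of plate 3, squares sst1.1+ over ins+ cells of plate 4, and open triangles ins+ cells of plate 4 over ins+ cells of plate 3. Most points lie in the grey band within 2-fold, spcs3 is the member whose circle and square are both above it by summed reads, and sec24d has the most distant square at 4.57. The gene sec24d reached the mean of 10 CPM only through the sst1.1+ pool.

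The gates differed more in how many members were read in a cell than in their summed level. With each cell thinned to 100000 gene reads, the lowest, median and highest number of members with a read was 21, 35 and 45 in sst1.1+ ins+ cells, against 15, 24 and 41 in ins+ cells of plate 3. It was 0, 31 and 46 in sst1.1+ cells, against 12, 24 and 36 in ins+ cells of plate 4. One sst1.1+ ins+ cell was too shallow to be thinned, and unthinned the medians were 37 in sst1.1+ ins+ against 25 in ins+ cells, and 33 in sst1.1+ against 24.5 in ins+ cells. The upper ranges overlap, but the middle of each gate stands apart from that of its ins+ cells.

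That breadth was shared with the rest of the transcriptome. Between sst1.1+ ins+ and ins+ cells, 46 of the 47 members were read in a larger share of thinned cells, by a median of 19.2 percentage points, and so were 91.6% of all genes, by 18.3 points. Between sst1.1+ and ins+ cells, 36 of 47 were read in a larger share, by a median of 11.3 points, against 70.4% of all genes and 7.04 points. Thinned cells held a median of 4203.5 genes in sst1.1+ ins+ against 2319 in ins+ cells of plate 3, and 3132 in sst1.1+ against 2476.5 in ins+ cells of plate 4. Gene reads per spike-in read had a median of 71.1 in sst1.1+ ins+ against 28.3 in ins+ cells, and 41.8 in sst1.1+ against 29.1 in ins+ cells. The part of total RNA per cell in the number of members read was not tested.

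**Figure D3:**
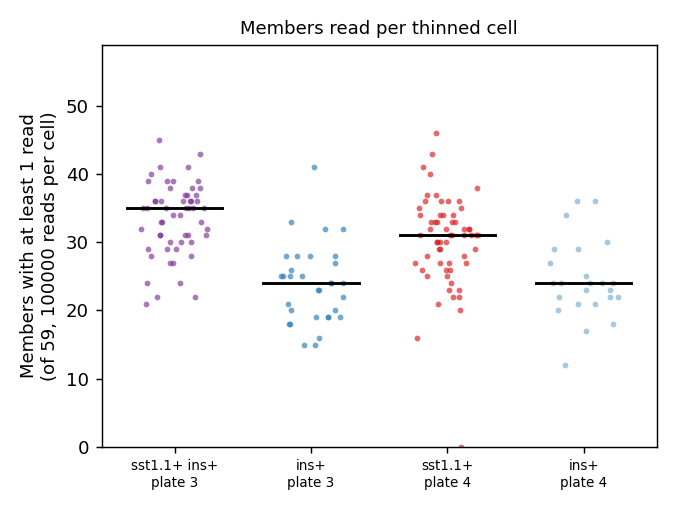
Number of the 59 members with at least 1 read in each cell after thinning to 100000 gene reads, by gate and plate; each point is a cell and the bar is the median. The medians are 35 in sst1.1+ ins+ cells against 24 in ins+ cells of plate 3, and 31 in sst1.1+ cells against 24 in ins+ cells of plate 4.

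The first step, recognition and docking, was near parity in sst1.1+ ins+ cells as a sum, while its members ran both ways. The 8 genes of the signal recognition particle (SRP) and its receptor summed to 256 CPM in sst1.1+ ins+ cells against 251 CPM in ins+ cells of plate 3 (ratio 1.02), and to 358 CPM in sst1.1+ cells against 284 CPM in ins+ cells of plate 4 (ratio 1.26). Over the total without hormone genes the ratios were 0.974 and 1.13. The member with the most reads on plate 3, srp54, encodes the GTPase that binds the signal sequence. It stood at 58.4 CPM in sst1.1+ ins+ against 67.9 CPM in ins+ cells, and at 72.8 CPM in sst1.1+ against 73.1 CPM in ins+ cells, so the gates of plate 4 gave almost 1 value. The receptor subunit genes srpr and srprb had ratios of 1.16 and 1.09 in sst1.1+ ins+ over ins+ cells and of 1.36 and 1.68 in sst1.1+ over ins+ cells. The gene srp19 was lower in both gates, within 2-fold. Its ratios were 0.572 (0.505 to 0.649) in sst1.1+ ins+ and 0.672 (0.595 to 0.760) in sst1.1+ over ins+ cells. For srp72 they were 1.46 and 0.879.

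The gene srp9, whose product belongs to the Alu domain of the SRP that slows translation during docking, was 5.19-fold higher (3.86 to 7.13) in sst1.1+ than in ins+ cells of plate 4. Its levels were 14.4 CPM in sst1.1+ ins+ against 11.1 CPM in ins+ cells of plate 3, and 19.4 CPM in sst1.1+ against 3.74 CPM in ins+ cells of plate 4. The low value was that of the ins+ cells of plate 4, where 2 of 24 cells had 5 reads or more, against 21 of 61 sst1.1+ cells. A single cell gave 61.7% of the srp9 reads of that ins+ pool, and without the top cell of each pool the levels were 17.4 CPM in sst1.1+ and 1.5 CPM in ins+ cells, a ratio of 11.6. On plate 3, 69.3% of the reads of the ins+ pool came from 1 cell. Without the top cells srp9 was at 11.95 CPM in sst1.1+ ins+ against 3.49 CPM in ins+ cells. The ratio was then 3.43, beside 1.29 by summed reads. The partner of srp9 in the Alu domain, srp14, was at 48.1 CPM in sst1.1+ against 26.8 CPM in ins+ cells of plate 4 (ratio 1.80, 1.6 to 2.02), and at 18.8 CPM in sst1.1+ ins+ against 16.6 CPM in ins+ cells of plate 3. Without the top cells the plate 4 ratio of srp14 was 2.11, past 2-fold.

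At the translocon, the channel and the signal sequence receptor that sits beside it, most members were a little higher in both gates than in ins+ cells. The 10 genes summed to 925 CPM in sst1.1+ ins+ against 799 CPM in ins+ cells of plate 3 (ratio 1.16), and to 1142 CPM in sst1.1+ against 911 CPM in ins+ cells of plate 4 (ratio 1.25). Over the total without hormone genes the ratios were 1.11 and 1.12. In both comparisons 8 of the 9 members compared lay above 0 on the log2 scale. Of all 6153 genes compared, 2947 did in sst1.1+ ins+ and 3154 in sst1.1+ cells. The most read was ssr4, the delta subunit of the signal sequence receptor. Its level was 228 CPM in sst1.1+ ins+ against 235 CPM in ins+ cells, and 303 CPM in sst1.1+ against 269 CPM in ins+ cells.

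Another subunit of that receptor, ssr3, had the widest log2 gap above 0 by summed reads among the 9 compared in both gates. It stood at 64.2 CPM (61.2 to 67.3) in sst1.1+ ins+ against 33.2 CPM (30.2 to 36.4) in ins+ cells of plate 3, a ratio of 1.93 (1.74 to 2.15), which falls short of 2-fold and was 2.05 without the top cells. It stood at 68.7 CPM in sst1.1+ against 24.4 CPM in ins+ cells of plate 4, a ratio of 2.82 (2.50 to 3.18). The lowest, median and highest cells were at 0, 54.2 and 212 CPM in sst1.1+ ins+ against 0, 2.35 and 188 CPM in ins+ cells of plate 3. On plate 4 they were at 0, 46.4 and 360.2 CPM in sst1.1+ against 0, 0 and 148 CPM in ins+ cells. The typical ins+ cell was thus near 0 on both plates, with a minority of cells well inside the range of the other gates. At least 5 reads were found in 48 of 57 sst1.1+ ins+ against 14 of 32 ins+ cells, and in 47 of 61 sst1.1+ against 9 of 24 ins+ cells.

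The paralogs of the channel subunit differed. The gene sec61a1 was at 129 CPM in sst1.1+ ins+ against 122 CPM in ins+ cells, and at 177 CPM in sst1.1+ against 139 CPM in ins+ cells, ratios of 1.06 and 1.27. Its paralog sec61al2 was at 21.7 CPM in sst1.1+ ins+ against 13.3 CPM in ins+ cells, and at 45.7 CPM in sst1.1+ against 17 CPM in ins+ cells, ratios of 1.63 and 2.69. Without the top cell of each pool sec61al2 was at 41.3 CPM in sst1.1+ against 9.61 CPM in ins+ cells, a ratio of 4.30, since 1 cell gave 45.5% of the reads in the ins+ pool. On plate 3 it was then at 19.9 CPM in sst1.1+ ins+ against 7.43 CPM in ins+ cells, a ratio of 2.68 that is past 2-fold. With leading cells left out the gap of sec61al2 was wider than that of ssr3 in both gates (log2 1.31 against 1.01, and 2.0 against 1.72). The counts may not divide paralogs cleanly where their sequences are alike. The small subunit sec61b was at 144 CPM in sst1.1+ ins+ against 110.0 CPM in ins+ cells of plate 3, and at 163 CPM in sst1.1+ against 84.9 CPM in ins+ cells of plate 4 (ratio 1.91, 1.79 to 2.05). The other small subunit, sec61g, was read most evenly: 56 of 57 sst1.1+ ins+ and all 32 ins+ cells of plate 3, and 60 of 61 sst1.1+ and 23 of 24 ins+ cells of plate 4, had 5 reads or more. Its ratios were 1.15 (1.06 to 1.25) and 1.41 (1.30 to 1.54).

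The gene sec63, whose product recruits the chaperone BiP to the channel, went opposite ways on the 2 plates. It was at 57.8 CPM in sst1.1+ ins+ against 38.4 CPM in ins+ cells of plate 3 (ratio 1.51, 1.36 to 1.67), and at 42.9 CPM in sst1.1+ against 100.3 CPM in ins+ cells of plate 4 (ratio 0.428, 0.396 to 0.462). The ins+ pools themselves differed by a ratio, plate 4 over plate 3, of 2.62 (2.36 to 2.90), so the value that stands apart is that of the ins+ cells of plate 4. Their cells ran over 0, 105 and 360.0 CPM (lowest, median and highest), against 0, 21.8 and 245 CPM in sst1.1+ cells.

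Among the members with a mean of at least 10 CPM, signal peptidase held the only one past 2-fold in both gates by summed reads. This is spcs3 (ENSDARG00000089976), whose product is an accessory subunit of the complex. Its level was 125.0 CPM (121 to 129) in sst1.1+ ins+ cells against 60.5 CPM (56.4 to 64.7) in ins+ cells of plate 3, and 213 CPM (208 to 218) in sst1.1+ cells against 61.8 CPM (57.6 to 66.3) in ins+ cells of plate 4. The ratios were 2.07 (1.92 to 2.23) and 3.45 (3.2 to 3.72), while the ins+ pools differed by a ratio of 1.02. Without the top cells the ratios were 2.27 and 3.71. Cells ran over 0, 97.9 and 418 CPM in sst1.1+ ins+ against 0, 41.6 and 314 CPM in ins+ cells of plate 3. They ran over 0, 189.7 and 745 CPM in sst1.1+ against 0, 5.97 and 253 CPM in ins+ cells of plate 4. Single cells overlap, since each pool holds cells without a read, but the medians are well apart. At least 5 reads were found in 54 of 57 sst1.1+ ins+ cells against 22 of 32 ins+ cells, and in 53 of 61 sst1.1+ cells against 11 of 24 ins+ cells.

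The rows of the plates gave the same order for spcs3. They divide the same reads that singled out this gene, so they are no separate check. The 6 rows of sst1.1+ ins+ cells lay between 104 and 158 CPM and the 3 rows of ins+ cells on plate 3 between 21.9 and 86.7 CPM. On plate 4 the 6 rows of sst1.1+ cells lay between 166 and 261 CPM and the 3 rows of ins+ cells between 54.8 and 70.9 CPM. In neither plate did the rows overlap, and in the row that the gates shared the level was 131 CPM in 3 sst1.1+ ins+ cells against 21.9 CPM in 9 ins+ cells, and 231 CPM in 8 sst1.1+ cells against 54.8 CPM in 3 ins+ cells.

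Of the other accessory subunits, spcs2 was lower in both gates and spcs1 was higher in both, each within 2-fold. The gene spcs2 was at 197 CPM in sst1.1+ ins+ against 309 CPM in ins+ cells of plate 3 (ratio 0.637, 0.612 to 0.664), and at 286 CPM in sst1.1+ against 315 CPM in ins+ cells of plate 4 (ratio 0.908). The gene spcs1 was at 169 CPM in sst1.1+ ins+ against 99.3 CPM in ins+ cells (ratio 1.71) and at 193 CPM in sst1.1+ against 158 CPM in ins+ cells (ratio 1.22), with a ratio of 1.59 between the ins+ pools. Summed, the 3 subunits were at 491 CPM in sst1.1+ ins+ against 468 CPM in ins+ cells, and at 692 CPM in sst1.1+ against 535 CPM in ins+ cells. The catalytic subunit sec11a, which the symbol rule does not take in, had ratios of 1.13 in sst1.1+ ins+ and 1.27 in sst1.1+ over ins+ cells. The signal peptide peptidase gene hm13, which clears cut signal peptides from the membrane, had ratios of 1.62 and 2.56, at 199.5 CPM in sst1.1+ ins+ against 123 CPM in ins+ cells and 361 CPM in sst1.1+ against 141 CPM in ins+ cells. Without the top cells it was past 2-fold on plate 3 also, at 191 CPM in sst1.1+ ins+ against 88.4 CPM in ins+ cells.

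**Figure D4:**
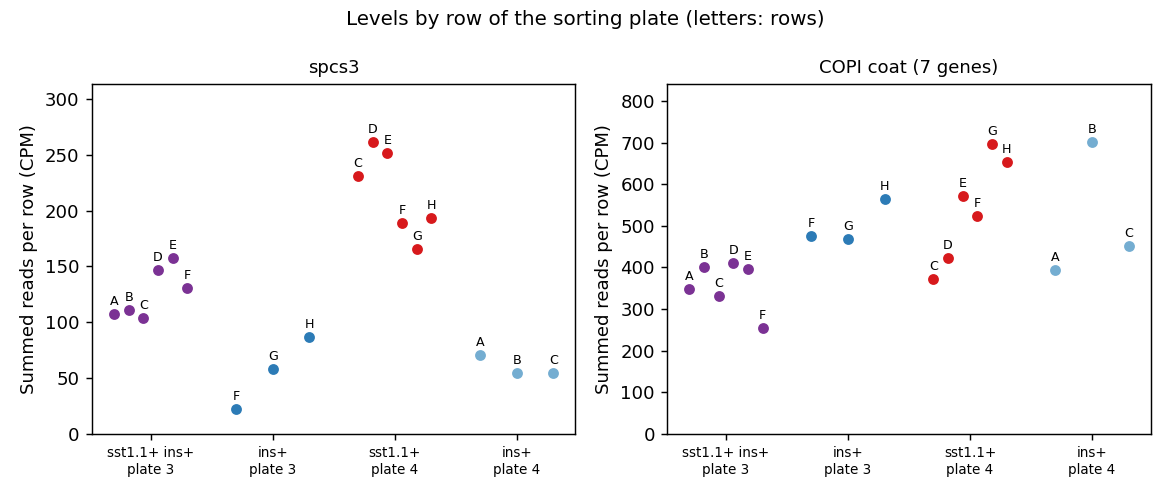
Summed level in CPM in each row of the sorting plates for spcs3 (left) and the 7 COPI genes (right), by gate and plate; each point is a row and its letter names the row. For spcs3 the rows of sst1.1+ ins+ and sst1.1+ cells all lie above the rows of ins+ cells on their plate, and for COPI the rows of sst1.1+ ins+ cells (253 to 411 CPM) lie below those of ins+ cells on plate 3 (468 to 564 CPM). The rows divide the same reads that singled out spcs3 and COPI and are no separate check.

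At the COPII coat, which buds vesicles from the ER, the 13 genes together were at parity in sst1.1+ ins+ cells, with 225 CPM against 221 CPM in ins+ cells of plate 3 (ratio 1.02). They were at 282 CPM in sst1.1+ against 316 CPM in ins+ cells of plate 4 (ratio 0.894), while the ins+ pools differed by a ratio of 1.43. The most read was sar1b, the GTPase that starts the coat. It was at 65.5 CPM in sst1.1+ ins+ against 75.2 CPM in ins+ cells, and at 64.4 CPM in sst1.1+ against 112 CPM in ins+ cells. Its paralog sar1ab stayed under 10 CPM on average.

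The cargo adaptors sec24b, sec24c and sec24d, the inner-coat subunits that pick the cargo, differed among themselves. The gene sec24d, known in zebrafish for its need in cartilage cells, was at 9.06 CPM in sst1.1+ ins+ against 6.06 CPM in ins+ cells of plate 3. On plate 4 it was at 26.5 CPM in sst1.1+ against 0.159 CPM in ins+ cells, where it had 2 reads in all. The ratio on plate 4 was 166 with a counting interval from 45.9 to 1380, too wide to give a size. At least 5 reads were found in 28 of 61 sst1.1+ cells and in none of 24 ins+ cells, against 14 of 57 sst1.1+ ins+ cells and 3 of 32 ins+ cells on plate 3. A single cell gave 62.2% of the sec24d reads of the ins+ pool of plate 3. Without the top cells the levels there were 7.55 CPM in sst1.1+ ins+ against 2.36 CPM in ins+ cells. The ratio was then 3.19, beside 1.49 by summed reads.

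The gene sec24b ran the other way on plate 4, at 17.1 CPM in sst1.1+ against 37.4 CPM in ins+ cells (ratio 0.458, 0.405 to 0.518), and was at 19.9 CPM in sst1.1+ ins+ against 16.6 CPM in ins+ cells of plate 3. Without the top cells it was at 13.8 CPM in sst1.1+ against 23.6 CPM in ins+ cells, a ratio of 0.583 that is no longer past 2-fold. The third adaptor, sec24c, was at 25.2 CPM in sst1.1+ ins+ against 34 CPM in ins+ cells, and at 26.9 CPM in sst1.1+ against 21.7 CPM in ins+ cells. A single cell held 69.9% of the sec24c reads of the ins+ pool of plate 4. Without the top cells the levels there were 21 CPM in sst1.1+ against 6.78 CPM in ins+ cells. The ratio was then 3.1, beside 1.24 by summed reads. The paralogs sec23a and sec23b, which switch off Sar1, had ratios of 1.42 and 1.23 in sst1.1+ ins+ over ins+ cells and of 1.17 and 0.813 in sst1.1+ over ins+ cells.

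The outer coat gave the other member compared that was 2-fold or more higher in sst1.1+ ins+ cells by summed reads. The gene sec31a was at 17.5 CPM in sst1.1+ ins+ against 6.87 CPM in ins+ cells of plate 3 (ratio 2.55, 2.04 to 3.22), and at 15.4 CPM in sst1.1+ against 11.3 CPM in ins+ cells of plate 4 (ratio 1.36). A single cell held 57% of its reads in the first ins+ pool and 90.1% in the other. Without the top cells it was at 13.6 CPM in sst1.1+ ins+ against 3.09 CPM in ins+ cells (ratio 4.38), and at 11.4 CPM in sst1.1+ against 1.17 CPM in ins+ cells (ratio 9.76). At least 5 reads were found in 19 of 57 sst1.1+ ins+ against 3 of 32 ins+ cells, and in 17 of 61 sst1.1+ against 2 of 24 ins+ cells. Its coat partner sec13, which is also a nuclear pore protein, was at 18.4 CPM in sst1.1+ ins+ against 20.4 CPM in ins+ cells, and at 24 CPM in sst1.1+ against 45 CPM in ins+ cells. The paralog sec31b, under 10 CPM on average, ran opposite to sec31a on plate 3, at 1.39 CPM in sst1.1+ ins+ against 13.2 CPM in ins+ cells. The counts may not divide these paralogs cleanly, so a rise of the outer coat as a whole cannot be read from sec31a.

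The Sec22 proteins, SNAREs and related proteins of ER to Golgi traffic, were low. Their 4 genes summed to 48 CPM in sst1.1+ ins+ against 57.3 CPM in ins+ cells, and to 57.4 CPM in sst1.1+ against 59 CPM in ins+ cells. Only sec22bb and sec22a reached a mean of 10 CPM. The gene sec22bb was at 24.3 CPM in sst1.1+ ins+ against 33 CPM in ins+ cells, and at 25.8 CPM in sst1.1+ against 26.7 CPM in ins+ cells. The gene sec22a was at 15.6 CPM in sst1.1+ ins+ against 11.9 CPM in ins+ cells, and at 24.5 CPM in sst1.1+ against 12.7 CPM in ins+ cells (ratio 1.93). Single cells gave 59.6% of its reads in the ins+ pool of plate 3 and 53.5% in that of plate 4, and without the top cells both ratios were past 2-fold, at 2.71 and 3.12.

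The p24 cargo receptors took the largest or next largest share of the members' reads in each pool. The 11 genes summed to 833 CPM in sst1.1+ ins+ against 868 CPM in ins+ cells of plate 3 (ratio 0.961), and to 1262 CPM in sst1.1+ against 1082 CPM in ins+ cells of plate 4 (ratio 1.17), with a ratio of 1.25 between the ins+ pools. The member with the most reads of all 59 by mean level was tmed10. It was at 292 CPM in sst1.1+ ins+ against 332 CPM in ins+ cells (ratio 0.879, 0.848 to 0.912), and at 489.9 CPM in sst1.1+ against 336 CPM in ins+ cells (ratio 1.46, 1.41 to 1.51). Cells ran over 0, 274 and 787 CPM in sst1.1+ ins+ against 0, 318 and 842 CPM in ins+ cells of plate 3, and over 0, 462 and 1301 CPM in sst1.1+ against 0, 246 and 1485 CPM in ins+ cells of plate 4. The ranges of tmed10 overlap on both plates, and on plate 4 the highest cell was an ins+ cell although the median was lower there.

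The gene tmed7 was higher in both gates, at 127 CPM in sst1.1+ ins+ against 92.3 CPM in ins+ cells (ratio 1.37), and at 196 CPM in sst1.1+ against 111 CPM in ins+ cells (ratio 1.77). The gene tmed3 was the 1 member compared that was 2-fold or more lower in sst1.1+ ins+ cells. It was at 20.1 CPM there against 45.4 CPM in ins+ cells (ratio 0.442, 0.393 to 0.497). It was at 36.7 CPM in sst1.1+ against 49.8 CPM in ins+ cells. Few cells carried it: 23 of 57 sst1.1+ ins+ against 14 of 32 ins+ cells had 5 reads or more. In the plate row that both gates shared its direction turned round, with a log2 ratio of 1.34 over 3 sst1.1+ ins+ and 9 ins+ cells. The gene tmed8 was lower in sst1.1+ cells, at 7.17 CPM against 32.3 CPM in ins+ cells of plate 4 (ratio 0.222, 0.189 to 0.261), and at 15.1 CPM in sst1.1+ ins+ against 21.1 CPM in ins+ cells of plate 3. It was read at 5 reads or more in 10 of 61 sst1.1+ and 8 of 24 ins+ cells.

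The COPI coat, which returns vesicles from the Golgi to the ER, was the complex lowest in sst1.1+ ins+ relative to ins+ cells by summed reads, and not so in sst1.1+ cells. Its 7 genes summed to 371 CPM (364 to 378) in sst1.1+ ins+ against 509.9 CPM (498 to 522) in ins+ cells of plate 3, a ratio of 0.728 (0.706 to 0.750), and to 545 CPM (538 to 553) in sst1.1+ against 538 CPM (525 to 551) in ins+ cells of plate 4, a ratio of 1.01. Over the total without hormone genes the ratios were 0.695 in sst1.1+ ins+ and 0.906 in sst1.1+ cells. All 7 lay below 0 on the log2 scale in sst1.1+ ins+ cells, with none past 2-fold, where 52.1% of all genes compared lay below 0, and 6 of 7 did without the leading cell of each gene. In sst1.1+ cells 4 of 7 did, beside 48.7% of all genes, and 1 of 7 without leading cells. The lowest ratios in sst1.1+ ins+ cells were those of copa (alpha subunit) and copb2 (beta prime subunit), known from zebrafish mutants with notochord defects.

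For copa the level was 51.9 CPM in sst1.1+ ins+ against 83.2 CPM in ins+ cells of plate 3 (ratio 0.625, 0.577 to 0.676), and 78.7 CPM in sst1.1+ against 86.4 CPM in ins+ cells of plate 4 (ratio 0.911). Cells ran over 0, 40.2 and 228 CPM in sst1.1+ ins+ against 0, 54.4 and 425 CPM in ins+ cells. For copa the sst1.1+ ins+ cells were thus lower at the median and at the top, and yet 50 of 57 of them had 5 reads or more against 21 of 32 ins+ cells. The cell median on plate 3 was also lower for cope, at 87.3 against 106 CPM in ins+ cells. It was higher in sst1.1+ ins+ cells for copb1 (24.3 against 1.14 CPM), copb2 (49.6 against 46.3), copg2 (27.9 against 9.16), copz1 (27.3 against 8.61) and copz2 (18.7 against 0). The most read subunit gene, cope, was at 90.1 CPM in sst1.1+ ins+ against 122 CPM in ins+ cells (ratio 0.739), and at 113 CPM in sst1.1+ against 123 CPM in ins+ cells (ratio 0.922). The gene copb2 was at 67.1 CPM in sst1.1+ ins+ against 105 CPM in ins+ cells (ratio 0.637), and at 100.4 CPM in sst1.1+ against 105 CPM in ins+ cells (ratio 0.957). The zeta subunit paralogs copz1 and copz2 had ratios of 0.764 and 0.660 in sst1.1+ ins+ over ins+ cells, and of 1.2 and 1.56 in sst1.1+ over ins+ cells. The gamma subunit copg2 had ratios of 0.867 and 1.31.

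The lower COPI level in sst1.1+ ins+ cells depended on how cells were combined. When each cell's log2 level was averaged in place of summed reads, which weighs cells with no read heavily, none of the 7 genes lay below 0 and their median log2 ratio was 0.75, where the median of all genes moved to 0.87. The delta subunit genes arcn1a and arcn1b, part of the same coat but outside the symbol rule, together stood at 64.5 CPM in sst1.1+ ins+ against 49.9 CPM in ins+ cells of plate 3, a ratio of 1.29 (1.18 to 1.42). With them, the 9 COPI genes had a ratio of 0.778 (0.756 to 0.801) in sst1.1+ ins+ and of 1.02 in sst1.1+ over ins+ cells. The rows of the plates divide the same reads that singled out COPI, so they are no separate check. On plate 3 the 6 rows of sst1.1+ ins+ cells lay between 253 and 411 CPM and the 3 rows of ins+ cells between 468 and 564 CPM, without overlap. On plate 4 the 6 rows of sst1.1+ cells lay between 373 and 696 CPM and the 3 rows of ins+ cells between 394 and 702 CPM, which overlap.

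The KDEL receptors catch escaped ER chaperones in the Golgi. The 3 genes summed to 129 CPM in sst1.1+ ins+ against 146 CPM in ins+ cells (ratio 0.885), and to 201 CPM in sst1.1+ against 155 CPM in ins+ cells (ratio 1.30). The paralogs kdelr2a and kdelr2b had ratios of 0.937 and 0.837 in sst1.1+ ins+ and of 1.19 and 1.32 in sst1.1+ over ins+ cells. The gene kdelr3, the least read, had ratios of 0.800 and 1.89. A single cell gave 47.8% of its reads in the ins+ pool of plate 4, and without the top cells it was past 2-fold there, at 15.9 CPM in sst1.1+ against 4.93 CPM in ins+ cells (ratio 3.23). By summed reads all 3 were below 0 on the log2 scale in sst1.1+ ins+ and above 0 in sst1.1+ cells, with none past 2-fold. Of all genes 52.1% lay below 0 in sst1.1+ ins+ cells, and 3154 of 6153 lay above 0 in sst1.1+ cells. Without the top cells kdelr2b was above 0 in sst1.1+ ins+ cells, at a log2 ratio of 0.14. The ER chaperones, among which are ligands of the KDEL receptors, stood further apart between the gates. A list of 20 ER chaperone genes summed to 2936 CPM in sst1.1+ ins+ against 1928 CPM in ins+ cells (ratio 1.52), and to 5939 CPM in sst1.1+ against 1933 CPM in ins+ cells (ratio 3.07). Of the 16 compared, 6 were 2-fold or more higher in sst1.1+ ins+ (11.4% of all genes) and 8 in sst1.1+ cells (17.9% of all genes), with none 2-fold lower in either (8.76% and 13.7% of all genes). Of 14 regulators of the unfolded protein response, which controls many chaperone genes, 4 were 2-fold or more higher in sst1.1+ ins+ and 8 in sst1.1+ cells, with none lower, beside the same shares of all genes.

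Set side by side, ER import had higher ratios than vesicle transport in both gates. The 21 import genes (SRP, translocon and signal peptidase) summed to 1673 CPM in sst1.1+ ins+ against 1518 CPM in ins+ cells of plate 3, a ratio of 1.1, and the 38 transport genes to 1606 CPM against 1802 CPM, a ratio of 0.891. On plate 4 import stood at 2193 CPM in sst1.1+ against 1729.6 CPM in ins+ cells (ratio 1.27), and transport at 2348 CPM against 2150.2 CPM (ratio 1.09). Over the total without hormone genes the import ratios were 1.05 in sst1.1+ ins+ and 1.13 in sst1.1+ cells. Those of transport were then 0.852 and 0.976, both below 1. By summed reads 4 of 20 import genes and 18 of 27 transport genes lay below 0 in sst1.1+ ins+ cells, beside 52.1% of all genes. All 7 COPI genes were among those 18, so this count is not separate from the COPI result. In sst1.1+ cells 5 of 20 import genes and 13 of 27 transport genes lay below 0 by summed reads, beside 48.7% of all genes. Transport thus stood at the share of all genes there. Between the ins+ pools import had a ratio of 1.14 and transport of 1.19.

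The rest of the same pathway, 107 further genes chosen by function (translocon partners, oligosaccharyltransferase, membrane insertion factors, COPII and COPI partners, SNAREs and tethers), gave summed ratios of 0.970 in sst1.1+ ins+ and 1.18 in sst1.1+ over ins+ cells. Over the total without hormone genes the ratios were 0.927 and 1.06. Of the 81 compared, 2 were 2-fold or more higher (11.4% of all genes) and 0 lower (8.76%) in sst1.1+ ins+ cells, and 7 were higher (17.9%) and 1 lower (13.7%) in sst1.1+ cells. Without leading cells 10 were higher in sst1.1+ ins+ and 15 in sst1.1+ cells, against 21.6% and 28.7% of all genes. All 10 oligosaccharyltransferase genes, which attach sugars to proteins entering the ER, lay above 0 in sst1.1+ cells (summed ratio 1.33), beside 3154 of all 6153 genes. In sst1.1+ ins+ cells 7 of 10 did (summed ratio 0.967), beside 2947 of all 6153 genes. Over the total without hormone genes their summed ratios were 1.19 in sst1.1+ and 0.924 in sst1.1+ ins+ cells. By summed reads only rab1ba, a Rab1 GTPase of ER to Golgi transport, was past 2-fold in both (4.53% of all genes), and without leading cells 5 of the 81 were (9.88% of all genes). Its summed levels were 76.1 CPM in sst1.1+ ins+ against 33.6 CPM in ins+ cells and 139.7 CPM in sst1.1+ against 62.2 CPM in ins+ cells.

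The other 12 members had a mean under 10 CPM over the 4 pools. No read was assigned to tmed1a or tmed6, and tmed5 had reads in sst1.1+ ins+ cells only, at 0.183 CPM. The others were sar1ab, sec16b, sec23ip, sec24a, sec31b, sec22ba, sec22c, tmed1b and ssr1. Of these, sec22c was 2-fold or more lower in both gates. It was at 1.13 CPM in sst1.1+ ins+ against 3.70 CPM in ins+ cells, and at 2.08 CPM in sst1.1+ against 7.65 CPM in ins+ cells. Few cells carried it: 3 of 57 sst1.1+ ins+, 2 of 32 ins+, 2 of 61 sst1.1+ and 2 of 24 ins+ cells had 5 reads or more. The gene sec23ip, which encodes a Sec23 partner and lay just under the limit, was at 11.2 CPM in sst1.1+ ins+ against 5.32 CPM in ins+ cells, and at 18.8 CPM in sst1.1+ against 4.14 CPM in ins+ cells. A single cell held 53.8% of its reads in the ins+ pool of plate 4, and without the top cells it was at 15.6 CPM in sst1.1+ against 2.0 CPM in ins+ cells. The gene sec31b, the paralog of sec31a, went the other way in sst1.1+ ins+ cells, at 1.39 CPM against 13.2 CPM in ins+ cells, and was at 7.90 CPM in sst1.1+ against 11.2 CPM in ins+ cells. The alpha subunit of the signal sequence receptor, ssr1, was at 4.20 CPM in sst1.1+ ins+ against 5.91 CPM in ins+ cells, and at 4.97 CPM in sst1.1+ cells against no read in ins+ cells of plate 4, where 3 reads would be 0.239 CPM.

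Across single cells, ER import and transport went up and down together to a moderate degree. Over hormone-free log2 levels, which share the library and its depth, Spearman's rho was 0.55 in 57 sst1.1+ ins+ cells, 0.59 in 61 sst1.1+ cells, and 0.30 and 0.26 in the 32 ins+ cells of plate 3 and the 24 of plate 4. The rho between the members and the ER chaperones was 0.31 for the sst1.1+ ins+ gate and 0.51 for the sst1.1+ gate, against 0.60 on plate 3 and 0.14 on plate 4 for the ins+ cells. Within the sst1.1+ ins+ gate the members' summed level had a rho of −0.01 with the share of sst1.1 in the reads of ins and sst1.1. Parts of the pathway gave small values of either sign with that share: 0.16 for ER import, 0.11 for spcs3 and −0.11 for COPI.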

How the data were processed

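The authors deposited 1 table of raw counts per gene, with 186 cells in columns, and the values used here are those whole-number counts. Per the submitters' processing notes the tools were Trim Galore, HISAT2 and featureCounts on GRCz11, and per the series' design text reads in exons were counted; the sources used here give neither the strand setting nor the handling of shared reads. Cells were grouped by the gate and the number in their titles. The 92 spike-in rows were left out of library sizes, and spike-in reads made up 5.61% of all reads. The EGFP row stayed in the library sizes. It was left out of the detected genes used to keep cells and of the genes compared.

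The members and the other gene lists were chosen with earlier results of these data known. Kept cells were summed per gate and plate and scaled to CPM. Intervals are exact Poisson for a level and exact conditional binomial for a ratio. Genes compared had a mean of at least 10 CPM over the 4 pools, with 1 CPM added before log2. The members named are those past 2-fold in a within-plate comparison (at most 3 per complex), the most read of each complex, paralogs of 1 coat subunit, and further members given for contrast. Members chosen after their values were seen include spcs1, spcs2, sec61b, sec61g, tmed7, copb2, srp14, srp19, srp72, sec23ip, sec22c, sec31b and ssr1. Listed symbols were matched by name or gene ID, and 3 were not found. No promoter or protein sequences were used here. Alternatives included TMM factors from edgeR 4.0.16. Interval coverage and recovery of known ratios were tested on simulated Poisson counts. Those hold no spread between cells, so they check the calculation only. Analyses used Python 3.11.15 and scipy 1.17.1.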

Additional observations from a re-analysis of the deposited data

How the results depend on the processing

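For each comparison 14 alternatives were computed, and 2 more were chosen after seeing the data: each gene without its leading cell in each pool, and, for sst1.1+ over ins+ cells, without the cell rich in AC024175.4. For sst1.1+ ins+ over ins+ cells the members' median log2 ratio of 0.08 was 1.0 as a mean of log2 levels over cells. It was −0.037 as a mean of CPM over cells, −0.078 with a mean of at least 50 CPM and −0.16 against the ins+ cells of both plates. Shares of all genes at the same setting follow in brackets. The members compared numbered 53 without hormone genes in the total, 23 at 50 CPM and 59 with no gene filter, in place of 47. The 2 members 2-fold or more higher became 24 as a mean of log2 levels (43.2%), 1 at 50 CPM (6.39%) and 0 with a pseudocount of 5 CPM (7.80%). They became 5 without cells over 5% other hormones (14.1%) and 4 without the cell with most member reads in each pool (11.7%). In the shared plate row they became 11 (24.3%), and without the leading cell of each gene 9 (21.6%). The 1 member lower became 2 without hormone genes in the total (12.3%) and 0 as a mean of log2 levels (0.341%). This count became 0 at 50 CPM (2.67%) and 3 with no gene filter (5.76%). It became 0 without cells over 5% other hormones (9.72%) and 12 in the shared row (33%). For sst1.1+ over ins+ cells the median of 0.26 was 0.090 without hormone genes in the total and 0.72 as a mean of log2 levels. The 5 members higher became 16 as a mean of log2 levels (24.7%), 1 at 50 CPM (10.7%) and 8 with no gene filter (14.5%). They became 19 in the shared row (47.8%) and 10 without the leading cell of each gene (28.7%). The 3 lower became 7 without hormone genes (19.2%), 1 at 50 CPM (9.39%) and 5 with no gene filter (7.56%). They became 1 against the ins+ cells of both plates (10.2%) and 7 in the shared row (20.6%). Only the shared row, with 3 cells in 1 of its gates, turned round the direction of members past 2-fold: tmed3 to 1.34 in sst1.1+ ins+ cells, and sec24b to 2.97 and sec61al2 to −0.47 in sst1.1+ cells. The median of all genes moved by over 0.1 in several of these, to 0.87 and 0.36 as a mean of log2 levels, −0.24 and 0.78 in the shared row, and −0.12 in sst1.1+ cells without hormone genes. The cause was not tested. The gene spcs3 was past 2-fold in 13 of 15 alternatives in sst1.1+ ins+ cells (log2 0.98 to 2.52) and in all 16 in sst1.1+ cells (1.62 to 3.21).

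No paired analysis was possible because each gate has 1 pool per plate and the labels name no animals. For several members under about 20 CPM a single cell carried most of the reads of an ins+ pool. The part of read depth in this was not tested. The deposited counts do not show whether lower levels in cells come from less RNA or from missed capture.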
